A study of Mus musculus with 6 samples.

Results

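The potassium channel genes of the mouse oocyte were taken as the rows of the deposited expression table whose symbol begins with Kcn and goes on with letters and a closing number. The rule leaves out 2 such symbols, Kcnh1 among them, which left 90 genes of the 53656 in the table. The 6 libraries were made from oocytes dissected by hand from mouse ovaries, 3 from Khdc3-null animals (KO) and 3 from wild-type animals (WT). Khdc3 encodes an oocyte protein, part of the subcortical maternal complex, and the study asked how the oocyte transcriptome differs without it. The labels give neither the age or strain of the mice nor the stage of the oocytes, and they do not say whether a library is 1 animal or a pool, so each p-value reflects the scatter among these 6 libraries and no more.

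Potassium channels let potassium leave the cell along its gradient and so hold the membrane potential negative. Pore-forming proteins fall into voltage-gated (Kv), calcium- or sodium-activated, inwardly rectifying (Kir) and tandem-pore-domain (K2P) families, the last of which carry a background leak. Accessory subunits form no pore of their own and change how their partners open, close or reach the surface. In oocytes the membrane potential bears on calcium entry, which refills stores during the calcium waves of fertilisation.

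Levels are given as RPKM, the reads of a gene divided by its exon length and by the depth of the library, so levels of different genes can be set side by side. Library totals recovered from the values ran from 34640170 to 43343444 reads. Khdc3 stood at 0.224, 0.217 and 0.113 RPKM in KO replicates 1, 2 and 3, against 423, 425 and 502 RPKM in WT replicates 1, 2 and 3, so its level matched the genotype label in every library. The 15 oocyte marker genes summed to 17100 to 17500 RPKM in KO and 17900 to 19100 RPKM in WT, with none at 0 in any group. Markers of other ovarian cells were also present. The sum of 16 granulosa and cumulus markers was 404 to 532 RPKM in KO and 222 to 366 RPKM in WT. That of 11 markers of stroma and smooth muscle was 38.2 to 50.8 RPKM in KO and 29.7 to 38.0 RPKM in WT. Of these 11, 8 were tested, 7 higher in KO and Myh11 lower (12.1 to 14.2 RPKM in KO, 15.4 to 16.2 RPKM in WT). Sums of leukocyte and surface epithelium markers were also higher in KO. Sums overlapped between genotypes for theca and luteal markers (102 to 125 RPKM in KO, 23.8 to 132 RPKM in WT). They also overlapped for endothelial (17.0 to 20.9 and 19.2 to 20.4 RPKM) and erythroid markers (8.71 to 71.1 and 17.2 to 72.3 RPKM). In bulk RNA, fewer cells of a type and less RNA per cell cannot be told apart.

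Of the 90 channel genes, 14 (15.6%) reached 1 RPKM in at least 3 of the 6 libraries, the level used here for expressed and required for testing. The same limit was reached by 22.9% of all rows and by 50.3% of the 19523 protein-coding rows. The 14 carried 90.9% of the summed RPKM of the 90 genes, the 5 highest 73.0% and the highest alone, Kcnk13, 32.2%. A further 25 genes had a mean between 0.1 and 1 RPKM, 43 had a mean above 0 and under 0.1 RPKM, and 8 were listed at 0 in all 6 libraries. Expressed genes were spread over 8 of the 10 subunit classes, and no class was expressed as a whole.

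**Figure D1:**
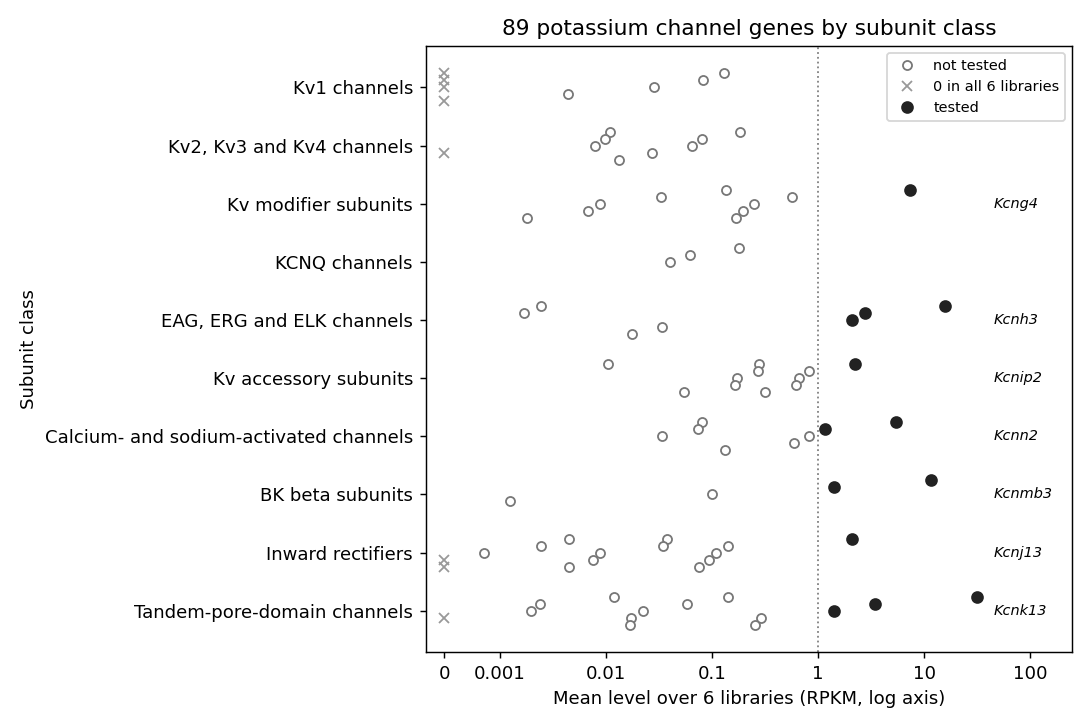
Mean level over the 6 libraries (horizontal axis, RPKM on a log axis, 0 drawn at the left edge) of 89 potassium channel genes by subunit class, with filled circles for 13 tested genes, open circles for untested genes with reads, crosses for the 8 genes at 0 and a dotted line at 1 RPKM. The highest plotted gene of each class with a filled circle is named at the right, and the Kv1 row and the row of Kv2, Kv3 and Kv4 hold no filled circle.

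Among the 90 genes, the K2P class held the largest share of the summed RPKM, 37.9%, and 3 of its 14 genes were expressed. Kcnk13 (chromosome 12, 99964499 to 100062682, plus strand, GRCm38) encodes the halothane-inhibited leak channel THIK1. Of the 90 genes it had the highest mean, and it ranked 1999 among all rows. Kcnh1, which the rule leaves out, was higher than Kcnk13 in every KO library (42.0 to 42.9 RPKM) and lower in every WT library (10.6 to 11.8 RPKM). Kcnk13 stood at 28.1, 31.4 and 28.1 RPKM in KO replicates 1, 2 and 3, against 34.6, 35.1 and 32.5 RPKM in WT replicates 1, 2 and 3. These levels rest on 3430 to 4440 reads per library, and no KO library reached the lowest WT library. Kcnk12, its closest relative and a known partner in mixed channels, was at or below 0.0511 RPKM in every library. Kcnk1, the weakly conducting leak channel TWIK1, stood at 3.64, 2.72 and 4.45 RPKM in KO and 3.40, 3.03 and 3.23 RPKM in WT, where the KO libraries spanned the whole WT range. Kcnk5, the acid-sensitive channel TASK2, stood at 1.46, 1.53 and 1.17 RPKM in KO and 1.63, 1.36 and 1.37 RPKM in WT. The mechanically gated Kcnk2 was the highest of the other 11 K2P genes, with a mean of 0.288 RPKM over the 6 libraries and its highest value, 0.677 RPKM, in WT replicate 1.

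The EAG, ERG and ELK class came next with 21.1% of the summed RPKM, nearly all of it from 3 of its 7 genes. That share leaves out Kcnh1, an EAG channel outside the rule, which averaged 42.4 RPKM in KO and 11.1 RPKM in WT. The order of classes given here is that of the 90 genes. Kcnh3 (chromosome 15, 99224861 to 99242817), an ELK channel best known from the brain, stood at 16.9, 12.8 and 13.4 RPKM in KO and 16.3, 17.4 and 17.8 RPKM in WT. KO replicate 1 lay within the WT range while KO replicates 2 and 3 lay below it. Kcnh2 encodes the ERG channel that repolarises the heart, and stood at 2.6, 2.51 and 2.56 RPKM in KO and 2.37, 3.51 and 2.98 RPKM in WT. Kcnh5, the EAG2 channel, stood at 2.01, 1.92 and 1.67 RPKM in KO and 2.20, 2.47 and 2.40 RPKM in WT, without overlap between the genotypes. Of the 4 others, Kcnh6, Kcnh7, Kcnh4 and Kcnh8, none exceeded a mean of 0.0341 RPKM.

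Among channels opened by calcium or sodium, 2 of 8 genes were expressed. Kcnn2 (chromosome 18, 45268860 to 45686024), the small-conductance calcium-activated channel SK2, stood at 5.41, 5.19 and 4.89 RPKM in KO and 5.77, 5.76 and 5.78 RPKM in WT. The WT libraries had an SD of 0.0117 RPKM, and all KO libraries were lower. Kcnma1, the large-conductance channel BK, stood at 0.909, 1.13 and 1.05 RPKM in KO and 1.45, 1.23 and 1.16 RPKM in WT, again without overlap. Below the limit, Kcnn4, the intermediate-conductance channel of red cells and lymphocytes, stood at 1.3, 0.736 and 0.528 RPKM in KO and 0.677, 0.852 and 0.813 RPKM in WT. Kcnn1, another small-conductance channel, stood at 0.805, 0.615 and 0.609 RPKM in KO and 0.384, 0.494 and 0.674 RPKM in WT, with overlap between the genotypes for both. Kcnu1, the pore of the sperm-specific channel SLO3, had at most 8 reads in any library, and Lrrc52, its accessory protein in sperm, was listed at 0 in all of them.

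Of 15 inward rectifiers, Kcnj13 alone was expressed. This gene of the channel Kir7.1, known from the retinal pigment epithelium, stood at 1.69, 2.51 and 2.54 RPKM in KO and 1.86, 1.67 and 2.34 RPKM in WT. Its level is uncertain, because 49.1% of its exon bases are also exon bases of Gigyf2 on the opposite strand and the sources used here do not say whether counting took strand into account. The same overlap was 8.13% for Kcnn2, 8.01% for Kcnk1, 5.98% for Kcnma1 and at most 0.0174% for each of the other 10 tested genes. The pore genes of the ATP-sensitive channel were low. Kcnj11 had a mean of 0.00446 RPKM and Kcnj8 a mean of 0.143 RPKM over the 6 libraries.

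Genes of the classical voltage-gated pores were low. None of the 8 Kv1 genes was expressed, and 4 of them, Kcna2, Kcna4, Kcna6 and Kcna10, were listed at 0 throughout. The 8 summed to 0.0979 to 0.351 RPKM per library. The 9 genes of Kv2, Kv3 and Kv4 channels summed to 0.279 to 0.519 RPKM, led by Kcnb2, a Kv2 channel, at a mean of 0.184 RPKM. Kcnc1, Kcnj1, Kcnj12 and Kcnk16 made up the rest of the 8 genes at 0. A count of 0 allows up to 3 reads in a library, which corresponds to between 0.00581 and 0.0399 RPKM for these genes and covers counting error only.

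In 4 sets of accessory or modifier subunits the summed level stood above that of pore genes they are known to bind. The sets were chosen after the levels had been seen, and Kcne genes are in none of them. Kcne2, an accessory subunit of ERG and other channels, lay below the ERG gene Kcnh2 in every library. Kcnmb3, a beta subunit of BK channels, stood at 13.0, 11 and 9.36 RPKM in KO and 13.2, 11 and 11.2 RPKM in WT. Kcnmb2, the beta subunit that gives BK currents inactivation, stood at 1.33, 1.18 and 1.41 RPKM in KO and 2.39, 1.05 and 1.13 RPKM in WT, with WT replicate 1 far above the other 5 libraries. Together the 4 beta genes reached 9.89 to 16.0 times the level of Kcnma1, the pore they bind. In reads the margin was smaller, 911 to 1064 reads for the beta genes and 606 to 852 for Kcnma1, whose annotated exons span 16976 bases. Which of those exons oocytes use cannot be read from this table.

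Kcng4 (chromosome 8, 119623854 to 119635680), a modifier subunit that forms channels only together with Kv2 proteins, stood at 6.92, 7.11 and 6.92 RPKM in KO and 7.95, 8.65 and 6.90 RPKM in WT. The 10 modifier genes summed to 8.50 ± 0.347 RPKM in KO and 9.05 ± 1.01 RPKM in WT, while Kcnb2, a Kv2 gene, averaged 0.165 ± 0.0651 RPKM in KO and 0.203 ± 0.0296 RPKM in WT (SD, n = 3 each). The modifier genes exceeded Kcnb2 35.8 to 81.2 times, on 1204 to 1557 reads against 67 to 144. Kcnip2, a calcium-binding partner of Kv4 channels known from the heart, stood at 2.11, 2.76 and 2.12 RPKM in KO and 2.27, 2.28 and 1.91 RPKM in WT. Kcnip4 of the same family stood at 0.801, 0.532 and 0.973 RPKM in KO and 0.947, 0.780 and 0.935 RPKM in WT, just short of the limit. The 4 interacting proteins summed to 3.37 to 4.02 RPKM and the 3 Kv4 genes to 0.0476 to 0.124 RPKM, the Kv4 genes on 15 to 46 reads. For the Kv beta subunits the margin over the Kv1 genes was 2.92 to 6.37 times, at 0.624 to 1.42 RPKM against 0.0979 to 0.351 RPKM. Every library showed the same order within each of these 4 sets, in KO and in WT.

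**Figure D2:**
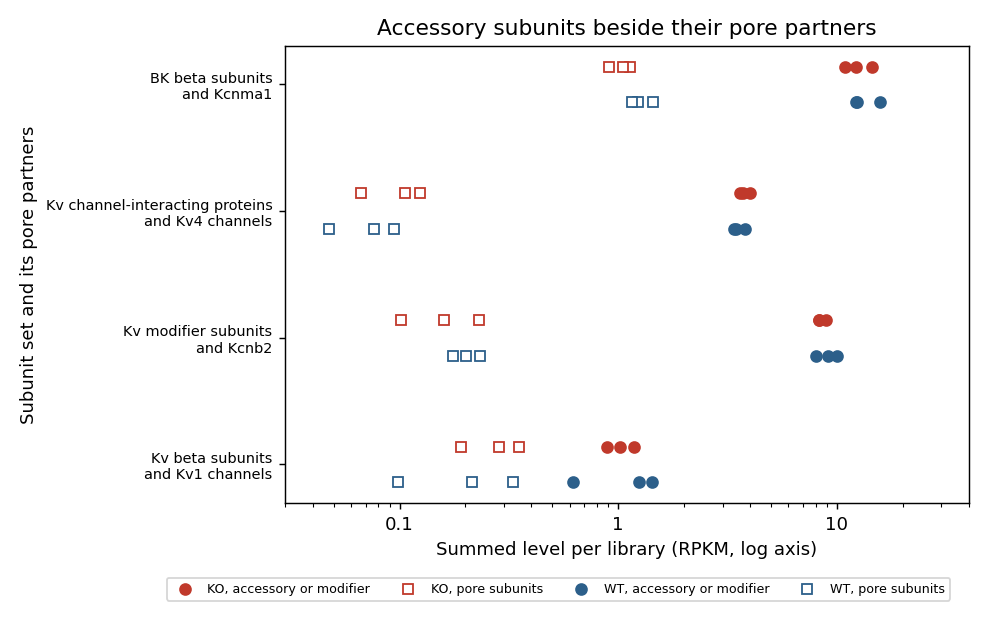
Summed level per library (horizontal axis, RPKM on a log axis) of accessory or modifier subunit genes (filled circles) and of the pore genes they are known to bind (open squares), for KO libraries (red, upper line of each set) and WT libraries (blue, lower line). In every set all circles lie to the right of all squares, by 9.89 to 16.0 times within a library for the BK beta genes and 35.8 to 81.2 times for the modifier genes.

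In order of level, Kcnk13 stood clear of Kcnh3. The ranges over 6 libraries of neighbours were also separate between Kcnmb3 and Kcng4, between Kcng4 and Kcnn2, and between Kcnn2 and Kcnk1. Kcnj13 and Kcnk5 were separate by a narrow margin (lowest 1.67 RPKM against highest 1.63 RPKM), and the level of Kcnj13 is uncertain, as stated above. The ranges of Kcnh3 and Kcnmb3 overlapped, though Kcnh3 was the higher in all 6 libraries. The ranges also overlapped between genes that follow each other from Kcnk1 to Kcnj13 (3.41 to 2.10 RPKM) and from Kcnk5 to Kcnma1 (1.42 to 1.15 RPKM). In those pairs the order held in 4 or 5 of the 6 libraries.

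**Figure D3:**
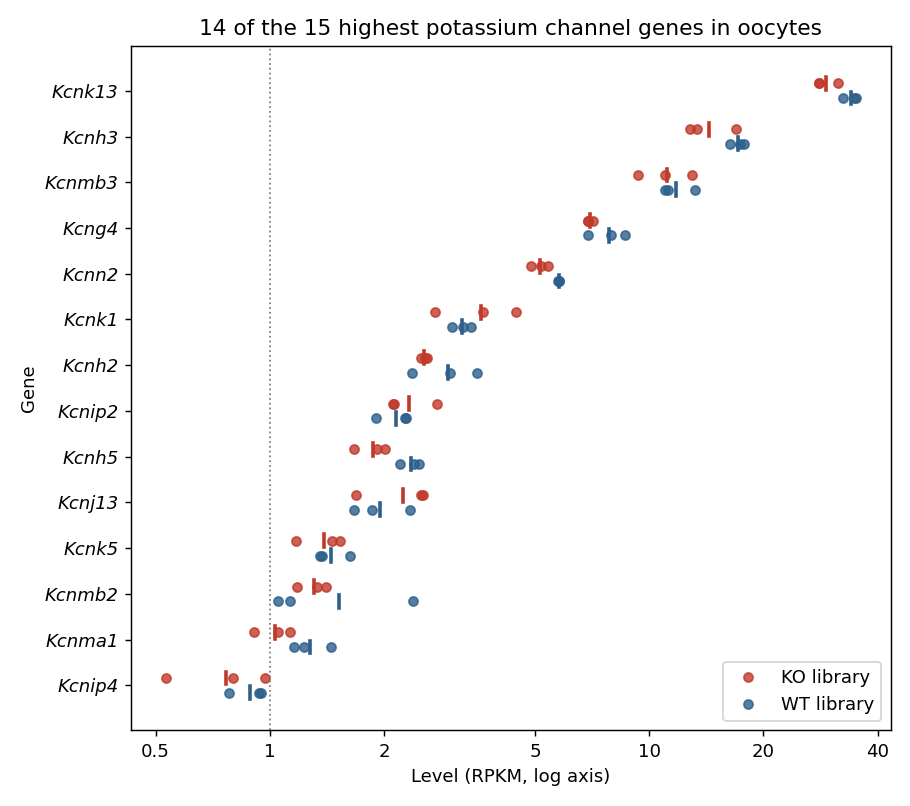
Level of 14 of the 15 highest of the 90 potassium channel genes (horizontal axis, RPKM on a log axis), with 1 point per library, KO in red above WT in blue. Short bars mark the mean of 3 libraries and a dotted line marks 1 RPKM. KO points lie left of all WT points for Kcnk13, Kcnn2, Kcnh5 and Kcnma1, and Kcnip4 is the 1 gene shown that was not tested.

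The start regions of 3 genes are shown. They set the gene of highest mean among the 90 and the most abundant modifier subunit beside a channel at 0 in all libraries. Each is 300 bases from RefSeq (GRCm38.p6), 250 before the annotated start and 50 after it, 5′ to 3′ on the gene's strand, with every CG dinucleotide in capitals, a motif that reads the same on both strands. Kcnk13 lies at chr12:99964249-99964548 on the plus strand, Kcng4 at chr8:119635631-119635930 on the minus strand and Kcnc1 at chr7:46396218-46396517 on the plus strand.
Kcnk13: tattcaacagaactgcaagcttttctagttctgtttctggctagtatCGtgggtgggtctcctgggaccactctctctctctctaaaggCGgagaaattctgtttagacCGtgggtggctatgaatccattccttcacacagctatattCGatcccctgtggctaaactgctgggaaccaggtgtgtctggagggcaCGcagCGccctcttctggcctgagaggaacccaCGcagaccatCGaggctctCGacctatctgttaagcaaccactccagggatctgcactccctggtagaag
Kcng4: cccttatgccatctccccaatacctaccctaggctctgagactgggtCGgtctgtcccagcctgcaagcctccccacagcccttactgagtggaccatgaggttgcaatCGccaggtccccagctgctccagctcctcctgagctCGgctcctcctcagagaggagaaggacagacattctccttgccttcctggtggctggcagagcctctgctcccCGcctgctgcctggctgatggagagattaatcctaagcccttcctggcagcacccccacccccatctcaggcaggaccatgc
Kcnc1: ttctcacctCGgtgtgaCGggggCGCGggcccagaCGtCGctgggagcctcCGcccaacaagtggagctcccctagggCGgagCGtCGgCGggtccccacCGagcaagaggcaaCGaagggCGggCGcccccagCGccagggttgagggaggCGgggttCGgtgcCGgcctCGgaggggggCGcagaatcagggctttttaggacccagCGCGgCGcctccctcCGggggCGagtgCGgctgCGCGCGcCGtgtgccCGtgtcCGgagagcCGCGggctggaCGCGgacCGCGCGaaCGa
Kcnk13 held 9 CG dinucleotides, Kcng4 4 and Kcnc1 41. Of all 32851 windows of this length in the RefSeq table, 94.6% held at least 1 and 45.8% held 9 or more. Across the 11 tested channel genes with a window the count ran from 4 to 36 (median 10), across the 8 genes at 0 it ran from 0 to 41 (median 6), and over all windows the median was 7. The ranges of expressed genes and of genes at 0 overlapped, and where oocyte transcripts start was not measured. The 3 genes were chosen after their values had been seen.

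None of the 14 tested channel genes differed between KO and WT at an adjusted p of 0.05 (limma on log2(RPKM + 1), Benjamini-Hochberg over all 12272 tested genes), where 2.74% of all tested genes did, 1.6% with KO higher and 1.14% with KO lower. The lowest adjusted p was 0.167, for Kcnk13. At an unadjusted p of 0.05, 2 of 14 passed (14.3%), Kcnk13 and Kcnh3, against 19.0% of all tested genes. On the recovered reads, limma voom also called 0 of 14, against 3.49% of its genes, and 4 (28.6%) had an unadjusted p under 0.05, against 19.6% of its genes. The count of 0 holds for the rule stated above, which sets aside Kcnh1, an EAG channel. In the same fit Kcnh1 rose to 42.4 ± 0.435 RPKM in KO, against 11.1 ± 0.618 RPKM in WT (SD, n = 3 each), and limma gave a log2 change of 1.85 with an SE of 0.07 and an adjusted p of 8.45e-06.

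Kcnk13 averaged 29.2 ± 1.91 RPKM in KO and 34.1 ± 1.37 RPKM in WT (SD, n = 3 each), a ratio of 0.857 and a log2 change of -0.22 ± 0.07 (SE) with a 95% interval of -0.38 to -0.05. Kcnh3 averaged 14.4 ± 2.21 RPKM in KO and 17.2 ± 0.789 RPKM in WT, and its change on the log2 scale was -0.25 ± 0.11 (SE) at a limma adjusted p of 0.259. With each library left out in turn, the Kcnh3 change ran from -0.36 (without KO replicate 1, adjusted p = 0.0539) to -0.18 (without KO replicate 2, adjusted p = 0.462), and with the libraries scaled to the oocyte markers it was -0.15 (adjusted p = 0.525). Kcnh5 averaged 1.87 ± 0.175 RPKM in KO and 2.35 ± 0.140 RPKM in WT, and its change was -0.23 ± 0.10 (SE) at an adjusted p of 0.265. Changes of the same sign were fitted for Kcnma1 (-0.17), Kcng4 (-0.14), Kcnh2 (-0.14), Kcnn2 (-0.14), Kcnmb2 (-0.09), Kcnmb3 (-0.08) and Kcnk5 (-0.04), none of which passed. Kcnj13, Kcnk1 and Kcnip2 had positive values of 0.13, 0.11 and 0.07, and did not pass either. The value of Kcnmb2 rests on WT replicate 1, and without that library it was 0.14.

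All 14 intervals of the difference lay between -0.53 and 0.47 on the log2(RPKM + 1) scale, or between 0.691 and 1.38 times. These bounds understate fold changes of genes near 1 RPKM. The widest interval was that of Kcnmb2, and the SE of the 14 genes ran from 0.07 to 0.19. A p above the threshold does not show that the genotypes were alike.

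**Figure D4:**
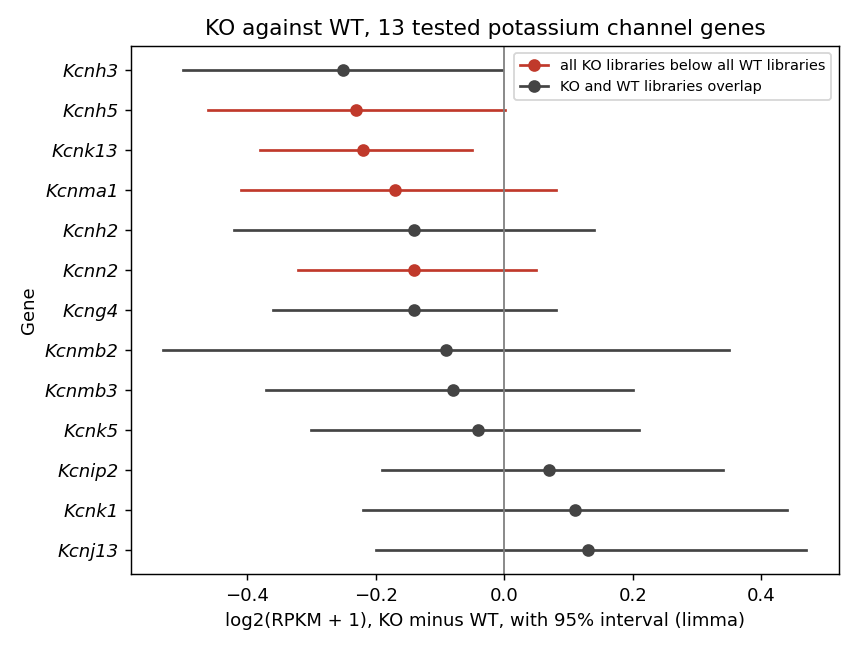
Difference in log2(RPKM + 1), KO minus WT, of 13 tested potassium channel genes (points) with the 95% interval from limma (lines), ordered by size. The points lie between -0.25 and 0.13, red marks the 4 genes whose KO libraries all lie below all WT libraries, and 10 of 13 points lie left of 0.

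Fitted values below 0 were more common than above it. In 10 of 14 (71.4%) the change was negative, against 46.9% of all tested genes, and their median change was -0.11, against 0.01 over all tested genes. The groups did not overlap in 4 of 14 (28.6%), Kcnk13, Kcnn2, Kcnh5 and Kcnma1, against 25.8% of all tested genes. All 4 were lower in KO, a direction in which 12.2% of all tested genes were separated, against 13.5% with KO higher. An exact permutation test on RPKM, two-sided, gave p = 0.1 for each of the 4, and no lower p is possible with 3 against 3. Groups of this size that do not overlap always give that p, so it adds nothing to the separation by which the 4 were picked. Summed over the 90 genes, the level was 97.9, 94.2 and 89.4 RPKM in KO replicates 1, 2 and 3 and 105, 105 and 98.7 RPKM in WT replicates 1, 2 and 3. These sums leave out Kcnh1, at 42.3, 42.9 and 42.0 RPKM in KO and 10.9, 11.8 and 10.6 RPKM in WT. The lower sums in KO therefore hold for the 90 genes only.

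The 15 oocyte markers had a median log2 change of -0.11, with 13 of 15 negative, and the tested granulosa markers had a median of 0.63, with 13 of 13 positive. At an adjusted p of 0.05 limma and voom called none of the oocyte and granulosa markers. With limma 3 oocyte and 6 granulosa markers had an unadjusted p under 0.05. Of the 8 tested stroma and smooth muscle markers, limma called 1 and voom called 1. In that list 7 had an unadjusted p under 0.05 with limma, and the median log2 change was 0.72. The part of these lists in the channel values was not tested. After each library was scaled to the oocyte markers, a scaling added after these values were seen, 8 of 14 channel genes (57.1%) were negative, against 27.9% of all tested genes. Their median was -0.04, against 0.11 over all tested genes, and none passed (lowest adjusted p = 0.402). Without KO replicate 1, which had the lowest weight among the libraries when these were estimated, 10 of 14 were negative and the median was -0.13.

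Among the 76 channel genes below the limit no test was made in the main fit. The 5 highest were Kcnip4 and Kcnn4, given above, Kcne2, Kcnab1, a Kv beta subunit, and Kcnn1. Kcne2 stood at 1.21, 0.322 and 1.11 RPKM in KO and 0.441, 0.432 and 0.462 RPKM in WT, on 23 to 85 reads, and the genotypes overlapped. Kcnab1 stood at 0.664, 0.559 and 0.443 RPKM in KO and 0.887, 0.808 and 0.363 RPKM in WT. Groups did not overlap in 6 of the 68 untested genes with reads, 5 with KO higher (7.35%, against 7.8% of all untested rows with reads) and 1, Kcnip1, with KO lower (3.1% of such rows). Kcnj8, the pore of the ATP-sensitive channel of vascular smooth muscle and pericytes, had the highest level of the 5, with 21, 13 and 40 reads in KO replicates 1, 2 and 3, against 4, 3 and 9 reads in WT replicates 1, 2 and 3. Its regulatory partner Abcc9 stood at 0.265, 0.278 and 0.482 RPKM in KO and 0.121, 0.288 and 0.154 RPKM in WT. The summed level of 5 pericyte markers was 0.790 to 1.86 RPKM in KO and 0.227 to 1.08 RPKM in WT, none of them at 0 in all libraries, and their part in the Kcnj8 values was not tested. In a fit of every gene with reads, none of 82 channel genes passed (lowest adjusted p = 0.295), against 0.275% of the 34219 genes in that fit. An unadjusted p under 0.05 was found for 4 of the 82 (4.88%), against 11.3% of those genes. The other 4 with KO higher, Kcnj15, Kcns2, Kcnh7 and Kcnf1, had at most 33 reads in any library.

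Among genes for partners of the channels, 1 of 51 tested passed (1.96%), against 2.74% of all tested genes. Of 19 tested genes for channel-binding and channel-modifying proteins, Nedd4l (chromosome 18, 64887705 to 65217828), a ubiquitin ligase that removes several ion channels from the cell surface, fell to 14.5, 14.9 and 13.6 RPKM in KO, against 25.8, 24.6 and 26.8 RPKM in WT (limma adjusted p = 0.00114 at a log2 change of -0.80, SE 0.07), with all KO libraries below all WT libraries. Next by p in that list were Calm2, a calmodulin gene, at 285 ± 13.4 RPKM in KO and 236 ± 11 RPKM in WT (adjusted p = 0.0737), and Senp1, a SUMO protease, at 15.5 ± 0.405 RPKM in KO and 19.5 ± 1.88 RPKM in WT (adjusted p = 0.103; SD, n = 3 each). Calmodulin is the calcium sensor of Kcnn channels, and near-identical coding regions of its gene copies can make read assignment uncertain. Of 15 tested genes of potassium pumps and transporters none passed. Among those with the smallest p values there were Atp1b2, a beta subunit of the sodium pump, at 2.20 ± 0.732 RPKM in KO and 0.906 ± 0.440 RPKM in WT (adjusted p = 0.119) and Fxyd6, a modulator of the sodium pump, at 1.57 ± 0.429 RPKM in KO and 0.757 ± 0.472 RPKM in WT (0.191). Nor did any of 17 other channel genes that bear on the membrane potential pass. The chloride channel Ano1, its family member Ano10 and the volume-regulated anion channel subunit Lrrc8e had the smallest p values, with log2 changes of 0.38, -0.39 and -0.23 (adjusted p = 0.198, 0.169 and 0.216). The median log2 change of the 3 lists was 0.08, 0.08 and -0.08, against 0.01 over all tested genes.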

How the data were processed

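RNA of oocytes was measured in 3 KO and 3 WT libraries, grouped by their titles. The authors deposited 1 table of RPKM values; the submitters' processing notes list STAR 2.6.0c, featureCounts 1.6.2, FastQC 0.11.7 and the build GRCm38.p6, and per the labels' protocols libraries were directional. Gene annotation and strand setting are not given in the sources used here. Coordinates and exon lengths came from GENCODE M21 (GRCm38), where all 90 members matched. With these lengths the values of 92.4% of 19630 genes came out as whole reads in every library (tolerance 0.01). For 8 members the smallest length giving whole reads was used, and their true reads may be a multiple of it.

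Genes at 1 RPKM or more in at least 3 of 6 libraries entered limma 3.58.1 as log2(RPKM + 1) (trended eBayes, R 4.3.3), genotype alone as covariate. Of genes simulated for KO against WT with 12102 genes in the fit, 75.0% of 60 changed 1.5-fold and all 73 changed 2-fold were called. In that run 13 unchanged genes were called too, and 5 were called in a run without any change. Every simulated gene had the same dispersion, the median of 0.0089, and changed genes were drawn from all levels. These shares therefore do not hold for noisier genes or for channel genes near 1 RPKM. Libraries of a genotype differed by more than counting noise (chi-square per degree of freedom at least 16.0). Single values used exact permutation tests (scipy 1.17.1). Figures used matplotlib 3.10.9.

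Members, classes and partner lists were chosen with earlier results of these data known. Given in every library are the genes among the 15 with the highest mean and the called partner. The rule also names the 3 partners of smallest p in each list, the uncalled ones with group means or log2 changes. A few items that this rule names are not reported here. Alternatives were other pseudocounts, filters and scalings, library weights, a replicate block, voom and each library left out.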

Additional observations from a re-analysis of the deposited data

How the results depend on the processing

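No potassium channel gene under the rule, which sets aside Kcnh1, passed in any of the 16 other fits run. The lowest adjusted p was 0.0539, from limma for Kcnh3 without KO replicate 1. Of 215 alternative values for the 14 tested genes 8 changed sign, all of genes with a change of at most 0.11 in size. With oocyte marker scaling Kcnmb3 was at 0.02 and Kcnk5 at 0.02. With a library left out, the log2 change of Kcnmb3 ran from -0.19 to 0.03 (positive without KO replicate 3), that of Kcnk1 from -0.02 (without KO replicate 3) to 0.25, that of Kcnmb2 from -0.22 to 0.14 (without WT replicate 1), that of Kcnk5 from -0.09 to 0.02 (positive without KO replicate 3 or WT replicate 1) and that of Kcnip2 from -0.01 (without KO replicate 2) to 0.12. The cause was not tested. Nedd4l kept its call throughout, and with library weights 2 partner genes were called, Calm2 being added (adjusted p = 0.0418). Expressed channel genes among the 90 numbered 5 at a limit of 5 RPKM, 19 at 0.5 RPKM and 13 or 14 with a library left out.

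Over all genes 336 were called, and 94 with no filter, 222 with a filter of 5 RPKM, 662 with library weights and 151 to 289 with a library left out. Oocyte marker scaling, chosen after seeing the data, moved the median change of all genes to 0.11 and the split of calls to 261 higher and 77 lower, against 196 higher and 140 lower. With the replicate number as a block limma called 320, and none of the 90 channel genes was among them (lowest adjusted p of the channel genes = 0.199). Deviations of same-numbered libraries from their group means had correlations of -0.016, 0.213 and -0.034. Those of differently numbered libraries ran from -0.155 to 0.153. With 3 libraries per genotype these values cannot decide whether the numbers mark pairs. Short genes rest on few reads (Kcnj13 on 82 to 140 per library), which limits the differences that can be resolved.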
